A study of Mus musculus with 122 samples.

Results

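The genes described here are 8 complement genes of the mouse: C1qa, C1qb and C1qc, which encode the 3 chains of C1q, the receptor genes C3ar1 and C5ar1, and C3, Cfb and Cfp, which encode complement component C3, factor B and properdin. They were chosen by gene symbol, and they are 8 of the 22050 genes in each count table. MARS-seq libraries, which read the 3′ ends of polyadenylated RNA, were made from sorted alveolar macrophages (the resident phagocytes of the air spaces) and related lung cells, 99 in all and in 31 groups. The series compared mutants of Cebpb, the gene of the transcription factor C/EBPβ, with their controls, and C/EBPβ binding and open chromatin were measured beside the RNA.

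Adult macrophages were taken by lavage. In the first set they came from C/EBPb tm1Pfj -/- mice of mixed background, sorted as CD11b high (n = 4) and CD11b low (n = 4) cells, and from +/+ mice of that line (n = 4). The same line gave -/- (n = 2), +/- (n = 3) and +/+ (n = 2) females of facility 1, -/- (n = 2) and +/+ (n = 3) females of facility 2, and -/- (n = 2) and +/+ (n = 2) males. Floxed Cebpb was deleted in LyzM Cre/Cre Cebpb flox/flox mice (n = 2), set against Cebpb flox/flox controls for which the labels name no Cre (n = 2), and in CD11c +/Cre Cebpb flox/flox mice (n = 4), set against CD11c +/Cre controls, which carry the Cre but no floxed allele (n = 3). The LyzM and CD11c drivers are active in several kinds of myeloid cells besides alveolar macrophages. Lip/Lip mice of the strain C/EBPtm1.2Acle were sorted as CD11b high (n = 4) and CD11b low (n = 4) cells and set against Lip +/+ mice (n = 3). Lip is the name of the short isoform of C/EBPβ, which lacks the activation domain of the long one.

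Premature alveolar macrophages came from digested lungs of embryonic day 18 (E18), from C/EBPb tm1Pfj -/- (n = 4) and +/+ (n = 3) fetuses and from Csf2rbtm1Cgb/J -/- (n = 3) and +/+ (n = 4) fetuses on C57BL/6. Csf2rb encodes the receptor chain through which granulocyte-macrophage colony-stimulating factor (GM-CSF) signals. Ly6Chi monocytes of E18 lungs were sorted from -/- (n = 4) and +/+ (n = 3) fetuses of the Cebpb line. A chromatin-matched set, made beside chromatin libraries, held adult Cebpb -/- (n = 3) and +/+ (n = 3) and Lip/Lip (n = 4) and Lip +/+ (n = 4) macrophages. Mixed chimeras were irradiated CD45.1/2 mice given 66% CD11cCre Cebpb fl/fl CD45.2/2 and 33% wild-type CD45.1/1 marrow. Their lungs gave knockout and wild-type alveolar macrophages 5 weeks (n = 4 and 3) and 10 weeks (n = 3 and 4) after transfer, and host cells left after irradiation carry both alleles of CD45. The 2 donor marrows differ in origin as well as in Cebpb.

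Complement is a set of plasma and tissue proteins that tag microbes and dying cells. In the classical pathway C1q binds its target and sets off cleavage of C3, while factor B and properdin drive the alternative pathway, in which C3 cleavage feeds on itself. Cleavage releases the small peptides C3a and C5a, which act on myeloid cells through the receptors C3ar1 and C5ar1. Much C1q is made by tissue macrophages, where it is often used as a marker gene, and resting alveolar macrophages are known for low C1q.

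The 3 C1q genes lie side by side on chromosome 4 of the build GRCm38.p6, C1qb (ENSMUSG00000036905) at 136880126 to 136886200, C1qc (ENSMUSG00000036896) at 136889801 to 136892936 and C1qa (ENSMUSG00000036887) at 136895916 to 136898844. C3ar1 (ENSMUSG00000040552) is at chr6:122847140-122856157, C5ar1 (ENSMUSG00000049130) at chr7:16246743-16259540, C3 (ENSMUSG00000024164) at chr17:57203967-57228136, Cfb (ENSMUSG00000090231) at chr17:34856374-34862514 and Cfp (ENSMUSG00000001128) at chrX:20925454-20931555. RefSeq promoter sequences, 250 bases before to 50 bases after the gene start, were at hand for 6 of the 8 genes, without C1qa and Cfb. The promoters of C1qb and C1qc are shown as those of the C1q genes at hand, and that of C3 because a C/EBPβ peak covers it. All 3 are on the minus strand, at chr4:136886151-136886450 for C1qb, chr4:136892865-136893164 for C1qc and chr17:57228087-57228386 for C3. Capitals mark the motif GAGGAA of PU.1 and other ETS factors in C1qb, its reverse complement in C1qc, and the C/EBP motif TTGCNNAA in C3.
C1qb promoter: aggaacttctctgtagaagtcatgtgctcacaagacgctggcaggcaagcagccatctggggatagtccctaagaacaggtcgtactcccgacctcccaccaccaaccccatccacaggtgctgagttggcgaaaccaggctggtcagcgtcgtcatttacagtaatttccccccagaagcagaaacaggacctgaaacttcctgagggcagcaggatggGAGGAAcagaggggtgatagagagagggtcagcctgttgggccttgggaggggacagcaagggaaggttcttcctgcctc
C1qc promoter: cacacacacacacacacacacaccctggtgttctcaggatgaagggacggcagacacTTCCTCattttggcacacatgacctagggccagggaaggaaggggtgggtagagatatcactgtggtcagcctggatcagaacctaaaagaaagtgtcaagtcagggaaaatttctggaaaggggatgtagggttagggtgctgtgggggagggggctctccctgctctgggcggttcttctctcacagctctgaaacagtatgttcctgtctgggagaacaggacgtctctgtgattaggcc
C3 promoter: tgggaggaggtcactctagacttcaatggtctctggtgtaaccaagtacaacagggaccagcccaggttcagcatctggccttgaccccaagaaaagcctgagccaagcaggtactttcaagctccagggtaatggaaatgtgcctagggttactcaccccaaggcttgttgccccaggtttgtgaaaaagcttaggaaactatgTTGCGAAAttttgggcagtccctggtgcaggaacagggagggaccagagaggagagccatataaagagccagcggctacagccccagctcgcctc

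Both strands were searched for 3 motifs, which do not overlap each other in these windows. GAGGAA was found in the promoters of C1qb (30 bases before the start), C1qc (193 bases before) and Cfp (2 matches, 7 and 23 bases after), 3 of 6, and in 28.3% of 32851 mouse promoters. TTGCNNAA was found in C3 alone, 45 bases before its start, and in 10.8% of all promoters. The interferon-stimulated response element was in none of the 6 and in 3.44% of all promoters. A match describes the letters of the window and is not a bound site.

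Library totals ran from 642269 to 17834909 counts, with 9387 to 13579 genes detected, and 3 counts stood for 0.170 to 5.02 CPM, the count of a gene scaled to a common library total. Levels are in CPM, with TMM factors within a table. Fold changes are log2 values with their standard errors (SE) from edgeR, whose p values were adjusted over all genes tested in a comparison by the Benjamini-Hochberg method, and calls were made below 0.05. Labels name replicates but not animals, so p values measure the spread between libraries, which may be technical. Cebpb itself fell by 2.95 to 5.34 on the log2 scale in all knockout groups against their controls, and averaged 725 ± 53.8 CPM in CD11b high and 915 ± 91.1 CPM in CD11b low Lip cells, against 582 ± 93.9 CPM in Lip controls. Csf2rb averaged 327 ± 34.9 CPM in its knockouts and 1058 ± 169 CPM in their wild types. All 12 alveolar macrophage markers of a list that includes Siglecf, Marco and Pparg had counts in every macrophage group, apart from Marco, which was at 0 in the 5-week chimera knockouts. None of the 12 was at 0 in the monocyte groups either, so such counts do not set macrophages apart from monocytes.

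In adult macrophages without Cebpb the 3 C1q genes rose together, and more than nearly all other genes. C1qa had 2194, 2903, 2964 and 2834 CPM in CD11b high knockout cells and 1506, 4364, 2765 and 2054 CPM in CD11b low ones, against 15.7, 23.4, 32.0 and 27.3 CPM in wild types. C1qb had 1715, 1574, 1491 and 1670 CPM in CD11b high knockouts and 716, 2100, 1130 and 950 CPM in CD11b low ones, against 20.9, 35.1, 16.3 and 20.2 CPM in wild types. C1qc had 653, 993, 1760 and 1048 CPM in CD11b high knockouts and 475, 1104, 721 and 916 CPM in CD11b low ones, against 3.93, 11.7, 3.92 and 9.10 CPM in wild types. Every knockout library stood above every wild-type library for all 3 genes, by more than 10-fold. The log2 fold changes in CD11b high cells were 6.74 ± 0.36 for C1qa, 6.13 ± 0.36 for C1qb and 7.31 ± 0.44 for C1qc (SE), with adjusted p of 1.69e-10, 5.96e-10 and 7.93e-10. In CD11b low cells they were 6.72 ± 0.36, 5.74 ± 0.36 and 6.85 ± 0.43 (adjusted p = 3.52e-10, 2.72e-09 and 2.72e-09), where C1qc had the 10th and C1qa the 11th largest rise of 8502 genes tested.

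C3ar1, the receptor for C3a, rose with C1q. It had 147, 212, 179 and 165 CPM in CD11b high knockouts and 81.9, 119, 128 and 87.9 CPM in CD11b low ones, against 0, 1.30, 5.23 and 1.01 CPM in wild types. The log2 fold changes were 6.13 ± 0.39 in CD11b high cells (SE, adjusted p = 1.53e-09) and 5.38 ± 0.40 in CD11b low cells (adjusted p = 2.36e-08). C5ar1, the receptor for C5a, moved the other way. It had 1.49, 1.67, 9.38 and 0.979 CPM in CD11b high knockouts and 4.09, 5.02, 5.03 and 9.77 CPM in CD11b low ones, against 107, 69.0, 37.9 and 35.4 CPM in wild types. It fell by 4.53 ± 0.53 in CD11b high cells (SE, adjusted p = 2.33e-06) and by 3.42 ± 0.48 in CD11b low cells (adjusted p = 3.93e-05) on the log2 scale.

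C3 fell less. Its levels were 50.5, 63.5, 49.6 and 89.0 CPM in CD11b high knockouts and 95.5, 104, 94.4 and 111 CPM in CD11b low ones, against 139, 157, 284 and 239 CPM in wild types, with no overlap. The log2 fold changes were -1.70 ± 0.24 in CD11b high cells (SE, adjusted p = 2.68e-05) and -1.04 ± 0.24 in CD11b low cells (adjusted p = 0.00486). Cfp, which encodes properdin, averaged 143 ± 44.6 CPM in CD11b high and 175 ± 17.9 CPM in CD11b low knockouts and 124 ± 19.6 CPM in wild types (SD, n = 4 each). It did not pass the test (adjusted p = 0.589 and 0.154). Cfb was near 0 here and in the whole series, with 0 to 4.73 CPM and at most 9 counts a library, and was never tested. Of the 8 genes, 6 were called in either comparison, 4 higher and 2 lower. Of all genes 24% were called for CD11b high cells, 12.2% higher and 11.8% lower, and 15.1% for CD11b low cells, 8.28% higher and 6.81% lower. The median log2 fold change of the 7 tested genes was 6.13 in CD11b high and 5.38 in CD11b low cells, beside 0.01 and 0.00 over all genes.

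**Figure D1:**
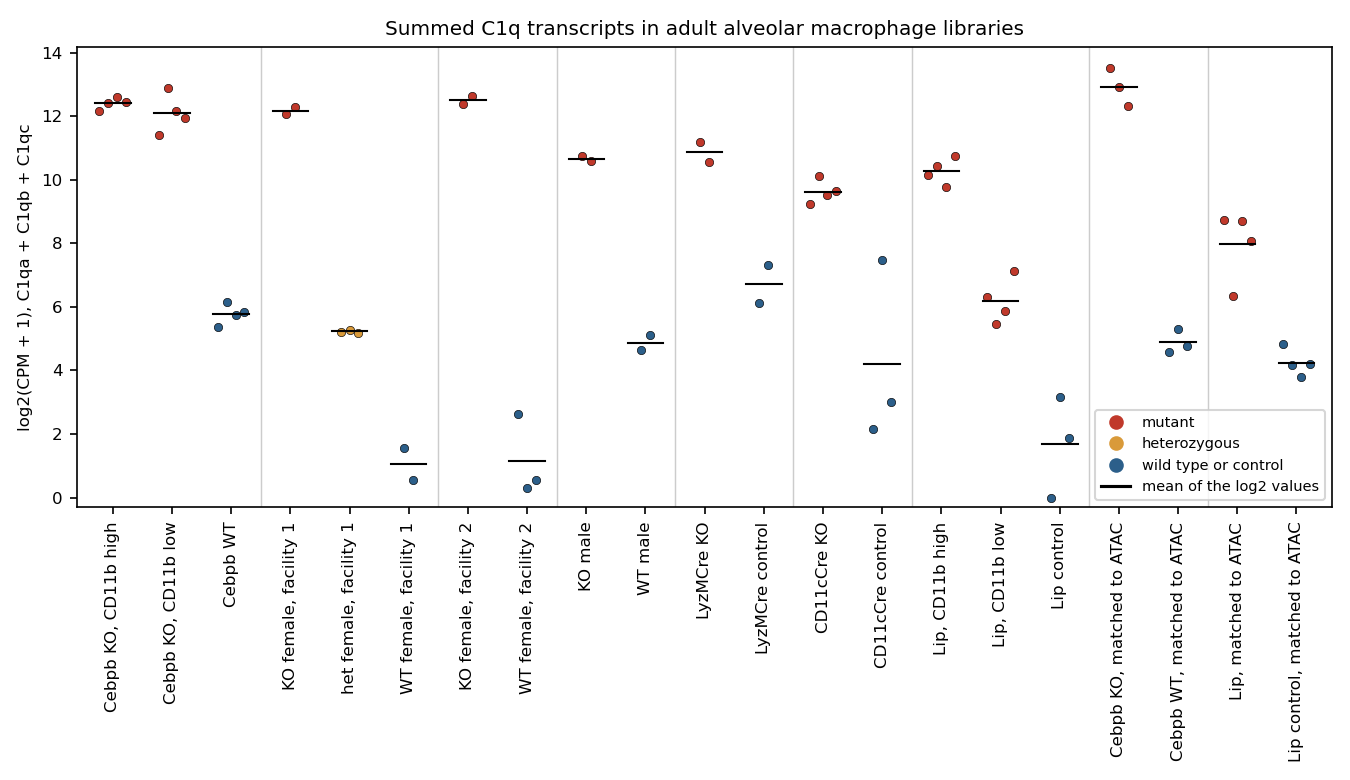
Summed CPM of C1qa, C1qb and C1qc on a log2(CPM + 1) axis in adult macrophage groups, 1 point a library, with the mean of the log2 values as a bar. Grey lines part the experiments, and each mutant group stands left of its control. In every experiment the knockout and Lip libraries lie above all controls, and the 3 heterozygous libraries lie between knockouts and wild types of facility 1.

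Between CD11b high and CD11b low knockout cells the test called 0 of the 7 tested genes by edgeR, where 3.8% of all genes were called. At an unadjusted p under 0.05 there were 2, C3 and C3ar1, and DESeq2 called 1, C3ar1 (log2 difference 0.76, adjusted p = 0.0313, against 0.75 ± 0.25, SE, and an adjusted p of 0.126 by edgeR). C1qa averaged 2724 ± 357 CPM in CD11b high and 2672 ± 1240 CPM in CD11b low cells (SD, n = 4 each; log2 difference 0.02 ± 0.27, SE). The 7 genes of an interstitial and tissue macrophage list, among them Cx3cr1 and Ccr2, summed to 18.6 to 108 CPM in CD11b high knockouts, 35.5 to 89.2 CPM in CD11b low ones and 1.31 to 24.3 CPM in wild types, in which Cd163, Folr2 and Tmem119 were at 0. The alveolar macrophage list summed to 722 to 1735, 2388 to 3552 and 9478 to 11609 CPM in the same order of groups. Neutrophil genes summed to 25.3 to 64.6, 110 to 257 and 43.2 to 70.6 CPM and erythroid genes to 57.7 to 223, 79.3 to 669 and 3.93 to 149 CPM in that order. Of the neutrophil genes, Elane was at 0 in each of these groups. Among the 3 tested, Cxcr2 alone was called in CD11b low knockouts, higher, and S100a8 alone in CD11b high ones, lower. The part of these lists in the C1q result was not tested, and in bulk libraries a changed number of cells of a type and a changed amount of RNA per cell cannot be told apart.

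In females of facility 1 the C1q genes were almost absent from wild-type cells. C1qa had 1576 and 2269 CPM in knockouts, 16.8, 14.5 and 16.1 CPM in heterozygotes, and 0.555 and 0.229 CPM in wild types, which held 2 and 1 counts. C1qb had 1793 and 1876 CPM in knockouts, 11.1, 15.1 and 11.9 CPM in heterozygotes, and 1.11 and 0 CPM in wild types. C1qc had 880 and 902 CPM in knockouts, 8.16, 8.22 and 7.45 CPM in heterozygotes, and 0.277 and 0.229 CPM in wild types. The order was knockout over heterozygote over wild type, and no library left its place in it. For genes with so few control counts the ratio of summed counts is given with its counting interval (95%): 5005 (1712 to 24272) for C1qa and 3546 (981 to 29287) for C1qc, knockout over wild type. C3ar1 had 101 and 190 CPM in knockouts, 1.69, 1.35 and 1.69 CPM in heterozygotes, and no count in wild types. Its mean CPM in knockouts was 386-fold over a floor of 3 counts in the 2 wild-type libraries together.

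Heterozygotes of facility 1 held C1q transcripts at a ratio to wild types of 41.8 for C1qa (14.2 to 204, adjusted p = 0.000814) and 31.8 for C1qc (8.65 to 265, adjusted p = 0.000814). Their levels lay within the range of first-set and male wild types of the line. C1qa was at 14.5 to 16.8 CPM in heterozygotes, 15.7 to 32.0 CPM in first-set wild types and 10.9 to 14.3 CPM in male wild types. C1qb was called at an adjusted p of 0.0485, and that call was lost without any of the 5 libraries: p was 0.113 and 0.448 without wild types 1 and 2, and 0.0653, 0.111 and 0.0683 without heterozygotes 1, 2 and 3. The mean CPM of C3ar1 in heterozygotes was 4.19-fold over the same floor of wild types, and C3ar1 was not called (adjusted p = 0.0966). The 3 genes called were 3 of 8 where 0.634% of all genes were called. With all groups of the table in the fit 1 was called, C1qa (adjusted p = 0.0287), and the adjusted p were 0.104 for C1qb and 0.181 for C1qc. Cebpb averaged 918 ± 304 CPM in these heterozygotes and 1518 ± 297 CPM in wild types (SD, n = 3 and 2). Against heterozygotes the knockouts rose by 6.94 ± 0.34 for C1qa, 7.18 ± 0.53 for C1qb, 6.82 ± 0.28 for C1qc and 6.53 ± 0.35 for C3ar1 (log2, SE), with 21.2% of all genes called.

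In facility 1 C5ar1 and C3 fell, as in the first set, and Cfp, not called there, was called higher. C5ar1 had 13.7 and 4.07 CPM in knockouts against 95.1 and 51.1 CPM in wild types (log2 fold change -2.98 ± 0.59, adjusted p = 0.00284). C3 had 72.7 and 72.6 CPM in knockouts against 184 and 253 CPM in wild types (-1.58 ± 0.21, adjusted p = 2.25e-05). Cfp had 267 and 253 CPM in knockouts against 169 and 154 CPM in wild types, and was called at an adjusted p of 0.0265. For Cfp that call was lost without any 1 of the 4 libraries, with adjusted p of 0.076 and 0.183 without wild types 1 and 2 and 0.108 and 0.0914 without knockouts 1 and 2. All 7 tested genes were called, with 23.2% of all genes called. Tissue macrophage markers summed to 51.5 to 61.5 CPM in knockouts, 3.73 to 8.93 CPM in heterozygotes and 3.21 to 4.99 CPM in wild types, where Cd163, F13a1 and Folr2 were at 0, and their part was not tested.

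Knockout females of facility 2 had another balance of the C1q chains and did not lose C3. C1qa had 1203 and 1423 CPM in knockouts against 1.40, 0.111 and 0.153 CPM in wild types, and C1qb had 3397 and 3840 CPM against 3.08, 0.111 and 0.153 CPM. C3ar1 had 385 and 305 CPM in knockouts against 0.140, 0.777 and 0.153 CPM in wild types. C3 had 228 and 167 CPM in knockouts against 141, 158 and 173 CPM in wild types and was not called (0.35 ± 0.18, adjusted p = 0.124). It was called without knockout 2 (0.55, adjusted p = 0.0423). C5ar1 had 5.31 and 1.37 CPM in knockouts against 98.8, 93.0 and 123 CPM in wild types (-5.44 ± 0.70, adjusted p = 4.2e-05). Here 5 of 8 genes were called, where 47.6% of all genes were. Tissue macrophage markers summed to 24.2 to 70.3 CPM in these knockouts and 0.918 to 2.94 CPM in wild types, where Cd163 and Folr2 were at 0, all 5 tested genes were called higher, and their part was not tested. Ly6c2, of a monocyte list, was at 0.182 and 40.5 CPM in these knockouts and 0 to 0.459 CPM in wild types. That list summed to 1735 to 1853 CPM and 2397 to 4409 CPM. It shares Chil3 with the alveolar macrophage list, so its sum does not follow monocytes alone, and its part was not tested.

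The knockout effect on C3 differed between the facilities by 1.92 ± 0.27 on the log2 scale, facility 2 minus facility 1 (SE, adjusted p = 0.000955), with 7.61% of all genes called in that test. For Cfp the difference was -1.02 ± 0.30 (adjusted p = 0.0442). That of Cfp was no longer called when 1 library was left out, with adjusted p from 0.0525 to 0.138 over 8 of the 9 libraries, the exception being knockout 1 of facility 2. Cfp itself had 197 and 107 CPM in facility 2 knockouts and 188, 214 and 169 CPM in wild types, with an adjusted p of 0.208, and of 0.00134 without knockout 1. For C1qa, C1qb, C1qc and C3ar1 no difference was called, and the SEs of 0.92 to 2.29 mean that large differences would not be detected. Between the wild types of facility 2 and facility 1 themselves edgeR called 0 of the 7 genes, with 0.199% of all genes called, DESeq2 called 0, and at an unadjusted p under 0.05 there was 1, C3.

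In males all 3 C1q genes and C3ar1 rose too. C1qa had 762 and 526 CPM in knockouts against 10.9 and 14.3 CPM in wild types, and C1qb had 633 and 699 CPM against 6.79 and 11.8 CPM. The log2 fold changes were 5.68 ± 0.39 for C1qa, 6.15 ± 0.62 for C1qb, 5.50 ± 0.33 for C1qc and 5.71 ± 0.48 for C3ar1 (SE), with adjusted p of 4.45e-08, 1.78e-05, 8.66e-09 and 5.65e-07. C5ar1 had 15.9 and 7.22 CPM in knockouts against 124 and 96.5 CPM in wild types (-3.21 ± 0.57, adjusted p = 0.00233). C3 had 132 and 101 CPM in knockouts against 165 and 155 CPM in wild types and was not called (adjusted p = 0.195). In males 5 of 8 genes were called, against 10.9% of all genes. The effect in males minus the mean effect in females was -6.06 ± 0.55 for C1qa, -5.60 ± 0.83 for C1qb, -6.19 ± 0.52 for C1qc and -5.56 ± 1.24 for C3ar1 (adjusted p = 1.96e-05, 0.00176, 7.22e-06 and 0.0118, with 10.6% of all genes called). These differences rest on the few counts of the female wild types, where the size of a fitted fold depends on the prior count, and for C3ar1 the call was lost without male wild type 1 (0.0558) or 2 (0.11). The labels of the males name no facility, so that sex and site cannot be told apart. In males the tissue macrophage list summed to 18.4 to 32.2 CPM in knockouts and 5.43 to 8.21 CPM in wild types, where Cd163 and Folr2 were at 0. The neutrophil list, of 9 genes, summed to 156 to 214 CPM and 56.2 to 62.2 CPM, with 6 of the 9, among them S100a9 and Elane, at 0 in both groups. The epithelium list, also of 9, summed to 128 to 212 CPM and 38.3 to 38.4 CPM. Of it, 5 were at 0 in knockouts (Krt18, Krt8, Sftpa1, Sftpb and Sftpd) and 3 in wild types (Krt8, Sftpb and Sftpd). Sftpc was at 0.150 to 0.635 CPM in knockouts and 0.892 to 1.90 CPM in wild types. Their part was not tested.

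With Cebpb deleted by LyzMCre the C1q genes rose as well. C1qa had 1074 and 677 CPM in LyzMCre knockouts against 36.3 and 70.9 CPM in their controls, a log2 fold change of 4.06 ± 0.42 (SE, adjusted p = 0.00121). C1qb had 847 and 541 CPM in knockouts against 19.3 and 37.7 CPM (4.64 ± 0.43, adjusted p = 0.000547), and C1qc had 395 and 288 CPM against 12.9 and 50.5 CPM (3.47 ± 0.53, adjusted p = 0.00608). C3ar1 had 47.4 and 54.9 CPM in knockouts against 0 and 3.77 CPM in controls (adjusted p = 0.00327 by edgeR and 0.0966 by DESeq2). C5ar1 had 6.08 and 3.08 CPM against 20.5 and 23.4 CPM (-2.51 ± 0.48, adjusted p = 0.018). C3 had 137 and 155 CPM in LyzMCre knockouts against 305 and 327 CPM in controls (-1.09 ± 0.25, adjusted p = 0.0449). So 6 of 8 genes were called, with 4.68% of all genes called. Without 1 of the 4 libraries some of these calls were lost: C1qc without knockout 2 (adjusted p = 0.144), C5ar1 without control 1 or 2 (0.0757 and 0.111) and C3 without control 1 or 2 (0.565 and 0.666), and Cfp was called without knockout 1 (0.0153) or 2 (0.0259). The tissue macrophage list summed to 19.5 to 30.0 CPM in knockouts and 9.05 to 9.94 CPM in controls, with 4 of 7 genes detected in knockouts and 2 in controls (Lyve1, Folr2 and Tmem119 were at 0 in both). The neutrophil list summed to 167 to 258 CPM in knockouts and 69.4 to 77.2 CPM in controls, with S100a9 and Elane at 0 in both. The part of these lists was not tested.

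In the CD11cCre line the call of C1q depended on 1 control library and on the fit. C1qa had 209, 402, 253 and 244 CPM in knockouts against 0.855, 44.7 and 1.67 CPM in controls, C1qb had 251, 425, 302 and 382 CPM against 1.50, 68.2 and 2.17 CPM, and C1qc had 143, 281, 177 and 169 CPM against 1.07, 64.6 and 3.17 CPM. No knockout library overlapped a control, yet with control 2 in the fit the adjusted p were 0.0743 for C1qa (4.16 ± 1.18, log2, SE), 0.107 for C1qb and 0.161 for C1qc. On the same libraries DESeq2 gave 0.0086 for C1qa, 0.0175 for C1qb and 0.0748 for C1qc, and edgeR with all groups of the table in the fit gave 2.36e-06, 1.84e-05 and 0.000205 in the same order of genes. Without control 2 the log2 fold changes were 7.71 for C1qa, 7.49 for C1qb and 6.43 for C1qc, with adjusted p of 1.22e-06, 7.91e-07 and 3.33e-06. The tissue macrophage list summed to 36.0 to 51.2 CPM in knockouts and 13.0 to 28.2 CPM in the 3 controls, where Folr2 and Lyve1 were at 0. A list of 9 neutrophil genes summed to 328 to 401 CPM in knockouts and 50.2 to 73.8 CPM in controls, with Elane at 0 in both, and all 4 tested, Csf3r, Cxcr2, S100a8 and S100a9, were called higher. The part of these lists was not tested. C3ar1 had 47.9, 62.8, 42.8 and 38.2 CPM in knockouts against 0, 7.64 and 0.667 CPM, again highest in control 2, and was called (4.14 ± 0.65, adjusted p = 0.00243). C5ar1 had 12.8, 11.5, 16.7 and 15.4 CPM in knockouts against 44.0, 52.7 and 58.4 CPM in controls (-1.88 ± 0.16, adjusted p = 8.64e-06). These were the 2 genes of 8 called, against 16.8% of all genes, and DESeq2 called 4.

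C3 averaged 159 ± 22.6 CPM in CD11cCre knockouts and 147 ± 20.5 CPM in their controls (SD, n = 4 and 3, adjusted p = 0.644). In the test of the difference between the LyzMCre and CD11cCre effects edgeR called 0 of the 7 genes, with 0.106% of all genes called. At an unadjusted p under 0.05 there was 1, C3, which DESeq2 also called (-1.19, adjusted p = 0.00461). For C3 the edgeR difference was -1.21 ± 0.26 (SE, adjusted p = 0.0976), and without LyzMCre knockout 2 it was -1.30 (adjusted p = 0.0148). Without CD11cCre control 2 the difference of C1qa was called too (-3.64, adjusted p = 0.0297).

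**Figure D2:**
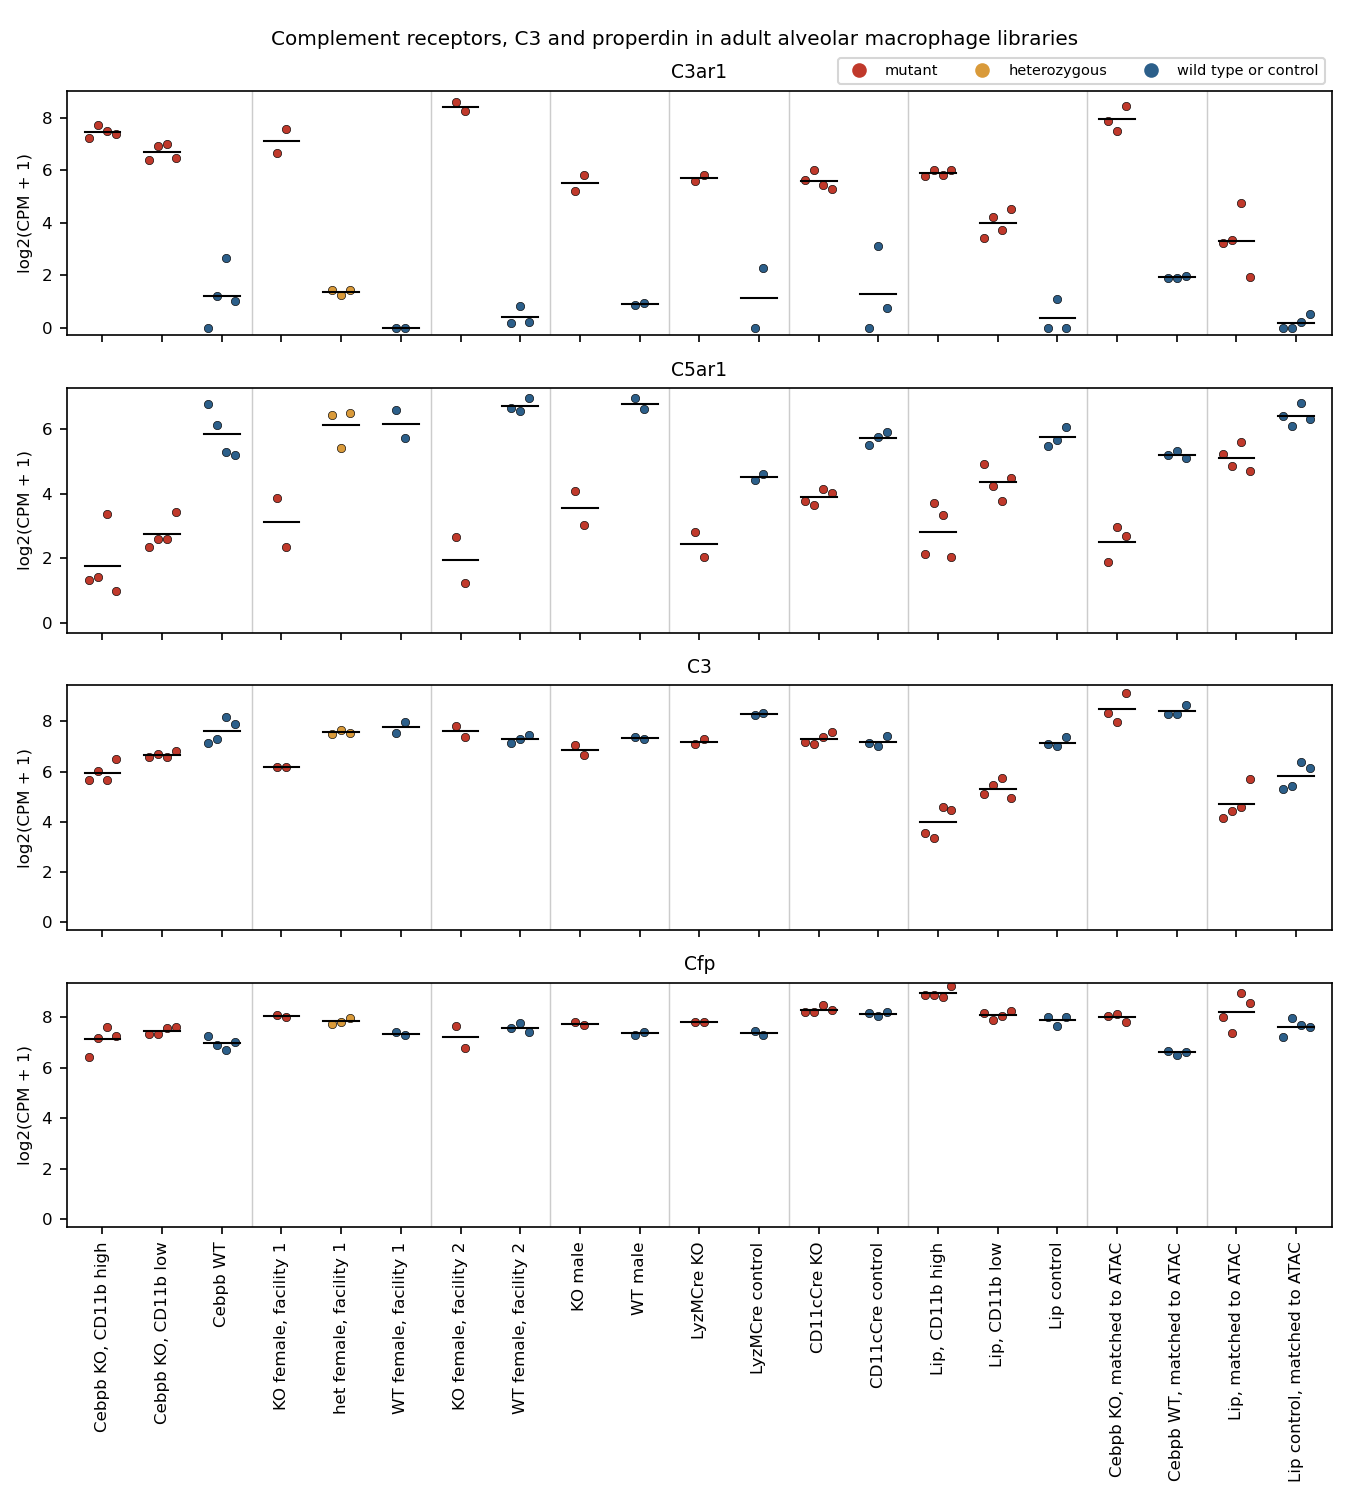
CPM of C3ar1, C5ar1, C3 and Cfp on log2(CPM + 1) axes in the adult groups, 1 point a library, with bars at the means of the log2 values and mutants left of their controls. In every experiment drawn, knockout and Lip libraries stand above all controls for C3ar1 and below all controls for C5ar1, while C3 and Cfp overlap in several.

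Lip/Lip macrophages, which keep Cebpb transcripts, split by CD11b. C1qa had 475, 724, 357 and 810 CPM in CD11b high Lip cells and 24.1, 22.1, 28.4 and 61.4 CPM in CD11b low ones, against 0, 1.12 and 0 CPM in controls. C1qb had 498, 456, 379 and 628 CPM in CD11b high cells and 43.5, 14.8, 18.7 and 50.5 CPM in CD11b low ones, against 0, 4.49 and 0.539 CPM in controls. C3ar1 had 54.4, 63.8, 54.9 and 63.8 CPM in CD11b high cells and 9.66, 17.7, 12.1 and 22.1 CPM in CD11b low ones, against 0, 1.12 and 0 CPM in controls. The 3 groups overlapped for none of C1qa, C1qb and C3ar1. CD11b high exceeded CD11b low Lip cells by 4.03 ± 0.40 for C1qa, 3.90 ± 0.36 for C1qb, 3.64 ± 0.38 for C1qc and 1.89 ± 0.20 for C3ar1 (log2, SE, adjusted p = 0.000114, 7.63e-05, 0.000156 and 2.68e-10), and all 7 tested genes were called, where 19.5% of all genes were.

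Against their controls, CD11b low Lip cells had a ratio of summed C1qa counts of 88.7 (24.3 to 737, adjusted p = 0.00773) and of C3ar1 counts of 38.1 (10.3 to 318, adjusted p = 5.62e-10). C1qb rose by 4.02 ± 0.89 (log2, SE, adjusted p = 0.0104) and C1qc by 3.10 ± 0.98 (adjusted p = 0.0482). Leaving out control 3 gave C1qb an adjusted p of 0.0526. C1qc was lost without any control (0.105, 0.129 and 0.13) and without CD11b low libraries 1 or 3 (0.0609 and 0.0621). In CD11b high Lip cells the ratios were 1358 (375 to 11215) for C1qa and 137 (37.6 to 1138) for C3ar1. Of the 8 genes, 7 were called for CD11b high cells, with 39.3% of all genes called, and 6 for CD11b low cells, with 25.8%.

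C3 and C5ar1 fell in Lip cells and Cfp rose in part of them. C3 had 10.9, 9.38, 23.3 and 21.3 CPM in CD11b high cells and 33.8, 42.8, 53.2 and 30.1 CPM in CD11b low ones, against 135, 128 and 164 CPM in controls. Its log2 fold changes were -3.11 ± 0.21 and -1.87 ± 0.17 (SE, adjusted p = 1.46e-12 and 1.88e-09). C5ar1 had 3.35, 12.2, 9.03 and 3.15 CPM in CD11b high cells and 29.0, 17.7, 12.7 and 21.3 CPM in CD11b low ones, against 43.7, 50.0 and 66.2 CPM in controls (-2.99 ± 0.30 and -1.46 ± 0.23, adjusted p = 1.74e-09 and 1.33e-05). Cfp had 472, 470, 445 and 595 CPM in CD11b high cells, 281, 233, 264 and 303 CPM in CD11b low ones and 254, 196 and 254 CPM in controls. Cfp rose by 1.07 ± 0.12 in CD11b high cells (adjusted p = 1.63e-10) and was not called in CD11b low ones (adjusted p = 0.249). The tissue macrophage list summed to 13.5 to 25.2 CPM in CD11b high Lip cells, 2.21 to 6.04 CPM in CD11b low ones and 8.62 to 16.9 CPM in controls, with Folr2 and F13a1 at 0 in all 3 groups. The erythroid list summed to 3.35 to 134 CPM in CD11b high cells, 34.6 to 72.3 CPM in CD11b low ones and 1.99 to 3.37 CPM in controls, with 4 of 4 tested genes called higher in CD11b high and 3 of 4 in CD11b low cells. The epithelium list summed to 71.2 to 185 CPM, 98.2 to 188 CPM and 36.8 to 40.4 CPM in the same order of groups. Of that list, Sftpb was at 0 in all 3 groups and Sftpc at 0 to 4.73, 0 to 6.68 and 0.561 to 2.98 CPM. The neutrophil list summed to 28.4 to 33.1 CPM, 44.7 to 88.6 CPM and 110 to 142 CPM. The part of these lists was not tested.

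The effect of the knockout and that of Lip in CD11b low cells were compared within 1 fit. C5ar1 fell further in the knockout, by a difference of -1.96 ± 0.54 (log2, SE, adjusted p = 0.0383), where 4.81% of all genes were called. This call for C5ar1 was lost without adult wild type 2, CD11b low knockouts 1, 2 or 3, Lip controls 1 or 2, or CD11b low Lip libraries 1, 2 or 4 (adjusted p from 0.0545 to 0.102). For C1qa the difference was 0.65 ± 3.52 and for C1qb 1.77 ± 1.47, too wide to say by how much these effects differ, given the few counts of the Lip controls. For C1qc it was 3.81 ± 1.40 (adjusted p = 0.158, and 0.00279 by DESeq2 with a difference of 3.77). C1qc was called by edgeR without CD11b low Lip library 4 (4.54, adjusted p = 0.0101), and C3 without adult wild type 3 (1.02, adjusted p = 0.0252).

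In the chromatin-matched libraries, from another table, C1q and C3ar1 were again higher and C5ar1 lower in Cebpb knockouts. C1qa had 5367, 3559 and 2507 CPM in Cebpb knockouts against 9.05, 15.6 and 6.98 CPM in wild types, a log2 fold change of 8.48 ± 0.47 (SE, adjusted p = 8.38e-06). C1qb rose by 7.95 ± 0.45, C1qc by 7.64 ± 0.39 and C3ar1 by 6.47 ± 0.30, with C3ar1 at 237, 177 and 344 CPM against 2.71, 2.72 and 2.94 CPM. C5ar1 had 2.69, 6.87 and 5.43 CPM in knockouts against 35.5, 38.4 and 33.4 CPM in wild types (-2.88 ± 0.30, adjusted p = 0.000108). Cfp rose to 259, 280 and 221 CPM, against 99.3, 90.3 and 98.2 CPM in wild types (1.39 ± 0.16, adjusted p = 0.00021). C3 had 320, 251 and 566 CPM in knockouts and 316, 314 and 400 CPM in wild types (0.13 ± 0.27, adjusted p = 0.771). That made 6 of 8 genes, where 27.2% of all genes were called. Tissue macrophage markers summed to 61.7 to 105 CPM in knockouts and 19.1 to 47.3 CPM in wild types, where Folr2 was at 0. The neutrophil list summed to 208 to 491 CPM in knockouts and 47.1 to 58.3 CPM in wild types, with Elane at 0 in both, and a list of 6 erythroid genes to 704 to 1845 CPM and 192 to 203 CPM. All 5 tested genes of each of these 2 lists were called higher, and the part of the 3 lists was not tested. Ly6c2, a gene of the monocyte list, ran from 1.43 to 161 CPM in knockouts and from 0.226 to 1.27 CPM in wild types. The monocyte list as a whole summed to 933 to 1267 CPM in knockouts and 3992 to 4985 CPM in wild types. It shares Chil3 with the alveolar macrophage list, so its sum does not follow monocytes alone, and its part was not tested.

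Chromatin-matched Lip cells, whose labels give no CD11b gate, had C1qa at 88.5, 15.5, 74.4 and 81.5 CPM against 7.01, 2.59, 3.05 and 5.24 CPM in controls (3.94 ± 0.50, adjusted p = 9.3e-05). C1qb had 269, 53.9, 285 and 130 CPM against 17.9, 10.4, 7.64 and 10.1 CPM, and C1qc rose by 4.22 ± 0.52. C3ar1 was below the filter, with 8.41, 8.98, 25.8 and 2.79 CPM in Lip cells against 0, 0, 0.170 and 0.437 CPM in controls and a count ratio of 55.5 (15.1 to 462). C5ar1 had 36.6, 28.0, 47.5 and 24.9 CPM against 83.3, 66.8, 111 and 78.7 CPM (-1.32 ± 0.26, adjusted p = 0.00378). C3 averaged 27.8 ± 15.5 CPM in Lip cells and 58.6 ± 21.5 CPM in controls and was not called (adjusted p = 0.0935), but was without Lip library 4 (-1.58, adjusted p = 0.00226). Of the 8 genes, 4 were called, against 4.94% of all genes. The epithelium list summed to 134 to 318 CPM in Lip cells and 80.8 to 92.7 CPM in controls, with Sftpb at 0 in both. Of that list, Sftpc was at 0.183 to 2.07 CPM in Lip cells and 0 to 2.59 CPM in controls. The neutrophil list summed to 11.2 to 20.4 CPM and 55.5 to 94.2 CPM, and the part of these lists was not tested.

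Before birth the wild-type cells already held C1q, and the knockout raised it further. In E18 premature macrophages C1qa had 1403, 925, 1328 and 741 CPM without Cebpb against 357, 254 and 142 CPM in wild types (2.11 ± 0.34, log2, SE, adjusted p = 0.000412). C1qb had 1949, 2111, 1668 and 2041 CPM against 674, 483 and 469 CPM (1.82 ± 0.25, adjusted p = 0.000111), and C1qc had 926, 1034, 863 and 634 CPM against 317, 265 and 181 CPM (1.75 ± 0.26, adjusted p = 0.000267). C3ar1 had 334, 184, 362 and 406 CPM in knockouts against 83.0, 49.5 and 29.0 CPM in wild types (2.55 ± 0.36, adjusted p = 0.000201). Knockouts and wild types did not overlap for any of these 4 genes. C3 fell to 59.2, 50.3, 63.5 and 21.2 CPM in knockouts, against 230, 202 and 221 CPM in wild types (-2.19 ± 0.30, adjusted p = 0.000125). C5ar1 had 66.7, 43.8, 46.3 and 30.1 CPM against 82.7, 112 and 79.3 CPM (-0.98 ± 0.26, adjusted p = 0.0127), and without wild type 2 its adjusted p was 0.0916. Cfp averaged 458 ± 101 CPM in knockouts and 355 ± 59.6 CPM in wild types and was not called (adjusted p = 0.311).

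In this E18 comparison 6 of 8 genes were called, against 21.5% of all genes, with a median log2 fold change of 1.75 over the 7 tested genes and -0.02 over all genes. The effect of the knockout in adult CD11b low cells exceeded that at E18 by 4.60 ± 0.49 for C1qa, 3.92 ± 0.42 for C1qb, 5.11 ± 0.46 for C1qc and 2.85 ± 0.65 for C3ar1 (log2, SE, adjusted p = 3.65e-07, 2.68e-07, 1.15e-08 and 0.00629). For C5ar1 the difference was -2.45 ± 0.52 (adjusted p = 0.00245). These 5 genes compare with 10.8% of all genes called. The difference of C3 was 1.15 ± 0.38 (adjusted p = 0.0535), and it was called without adult wild type 3 (0.0295) or without E18 knockout 1 or 3 (0.0498 and 0.0355). Sort and tissue differ between the ages, lavage cells split by CD11b in adults and lung digests before birth, and cannot be told apart from age.

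E18 macrophages without Csf2rb had the highest C1qb of the fetal groups. C1qb had 5892, 4252 and 3737 CPM in knockouts against 58.9, 71.5, 63.4 and 48.4 CPM in wild types (6.34 ± 0.24, log2, SE, adjusted p = 1.21e-06). C1qa had 968, 802 and 604 CPM against 20.8, 38.7, 36.9 and 31.5 CPM (4.70 ± 0.28), and C1qc had 1097, 1234 and 625 CPM against 21.9, 29.7, 32.2 and 19.8 CPM (5.33 ± 0.31), both at an adjusted p of 6.01e-06. C3ar1 had 99.4, 141 and 113 CPM in knockouts against 13.8, 3.66, 12.5 and 10.5 CPM in wild types (3.63 ± 0.45, adjusted p = 0.000505). For all 4 genes the lowest knockout library stood above the highest wild type. The 3 knockout libraries had the fewest genes detected of the largest table, 9407, 9418 and 9387, against 11654, 12404, 11639 and 12557 in their wild types, and the part of this in the result was not tested.

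C3 had 64.6, 140 and 104 CPM in Csf2rb knockouts against 302, 615, 253 and 256 CPM in wild types (-1.71 ± 0.38, adjusted p = 0.0109). C5ar1 had 61.0, 36.6 and 32.1 CPM against 162, 59.6, 148 and 134 CPM, with overlap, and was called at an adjusted p of 0.0273. That of C5ar1 was lost without wild types 1, 3 or 4 (0.0854, 0.0787 and 0.0728) and without knockouts 2 or 3 (0.0738 and 0.0811). Cfp had 294, 274 and 279 CPM in knockouts against 423, 674, 365 and 427 CPM in wild types (-0.66 ± 0.22, adjusted p = 0.0626 by edgeR and 0.0244 by DESeq2). Of the 8 genes 6 were called, where 22.5% of all genes were.

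Markers of dendritic cells stood higher in both fetal knockouts. The tissue macrophage list summed to 784 to 1856 CPM in E18 Cebpb knockouts and 644 to 1075 CPM in their wild types, where 3 of its 7 genes, Cx3cr1, Lyve1 and Tmem119, were called higher in knockouts and none lower. Lyve1 alone ran from 154 to 618 CPM in these knockouts and from 12.6 to 47.8 CPM in wild types. The list summed to 1914 to 2740 CPM in Csf2rb knockouts against 473 to 603 CPM in their wild types, with all 7 genes detected. Of that list, Ccr2 alone ran from 873 to 1376 CPM in Csf2rb knockouts and from 83.0 to 342 CPM in their wild types. In the Cebpb line Ccr2 ran from 134 to 354 CPM in knockouts and from 220 to 426 CPM in wild types. A list of 6 dendritic cell genes summed to 366 to 866 CPM in Cebpb knockouts, in which Xcr1 was at 0, against 15.6 to 19.8 CPM, and to 101 to 171 CPM in Csf2rb knockouts, in which Ccr7, Clec9a and Xcr1 were at 0, against 1.15 to 3.41 CPM. In their wild types Xcr1 was at 0 too, beside Clec9a in the Cebpb line and Cd209a in the Csf2rb line. The epithelium list summed to 128 to 271 CPM in Cebpb knockouts and 30.1 to 35.6 CPM in their wild types. Erythroid genes summed to 7438 to 10457 CPM in Csf2rb knockouts and 2175 to 4057 CPM in their wild types. The alveolar macrophage list summed to 183 to 264 CPM in Cebpb knockouts and 2195 to 2266 CPM in their wild types. In the Csf2rb line it summed to 139 to 315 CPM in knockouts and 1309 to 2187 CPM in wild types. The part of these lists in the complement results was not tested.

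**Figure D3:**
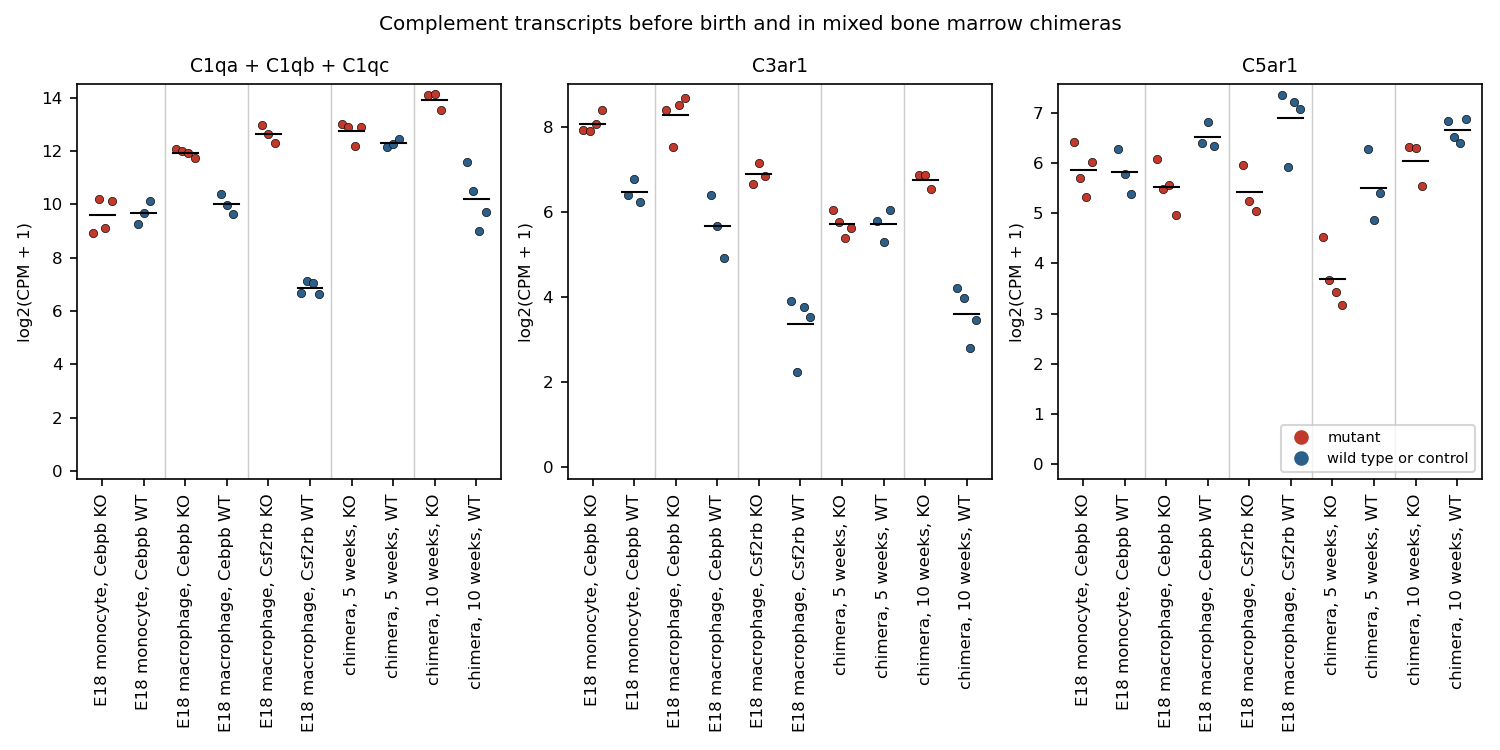
Summed C1q, C3ar1 and C5ar1 on log2(CPM + 1) axes in E18 monocytes and macrophages and in chimera macrophages at 5 and 10 weeks, 1 point a library, bars at the means of the log2 values, knockouts left of wild types. Knockouts and wild types overlap for C1q and C3ar1 in chimeras at 5 weeks and separate at 10 weeks, and monocyte groups overlap for C1q but not for C3ar1.

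Among wild types, adult cells held much less C1q than E18 premature macrophages of the same line. E18 wild types of the Csf2rb line, which were not in this test, were nearer the adults. Their means were 32.0 ± 8.06 CPM for C1qa, 60.5 ± 9.62 CPM for C1qb and 25.9 ± 5.99 CPM for C1qc (SD, n = 4). In the Cebpb line C1qa averaged 24.6 ± 6.90 CPM in adults and 251 ± 108 CPM at E18 (SD, n = 4 and 3), a log2 difference of -3.24 ± 0.31 (SE, adjusted p = 1.42e-06). For C1qb the means were 23.2 ± 8.24 and 542 ± 115 CPM (-4.51 ± 0.28, adjusted p = 9.68e-09), and for C1qc 7.16 ± 3.89 and 254 ± 68.6 CPM (-5.14 ± 0.33, adjusted p = 1.6e-08). C3ar1 averaged 1.89 ± 2.30 CPM in adults and 53.8 ± 27.2 CPM at E18 (-4.40 ± 0.56, adjusted p = 3.98e-05). Cfp was lower in adults too, at 124 ± 19.6 CPM against 355 ± 59.6 CPM (-1.44 ± 0.20, adjusted p = 4.19e-05). C3 averaged 205 ± 68.5 and 218 ± 14.3 CPM and was not called (adjusted p = 0.979). C5ar1 averaged 62.4 ± 33.6 and 91.2 ± 17.8 CPM (adjusted p = 0.224) and was called lower in adults without adult wild type 1 (-0.90, adjusted p = 0.016). In all, 5 of 8 genes were lower, where 21.4% of all genes were and 42.1% were called either way. Among markers, the tissue macrophage list summed to 1.31 to 24.3 CPM in adults and 644 to 1075 CPM at E18, with 6 of 6 tested genes lower in adults, and the erythroid list to 3.93 to 149 CPM and 1493 to 7941 CPM. The part of these lists was not tested.

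In Ly6Chi monocytes of E18 lungs the C1q genes did not pass the test. C1qa had 84.6, 209, 144 and 174 CPM in knockouts and 101, 76.5 and 101 CPM in wild types (0.73 ± 0.27, log2, SE, adjusted p = 0.179), and without knockout 1 it was called (0.95, adjusted p = 0.0275). C1qb had 283, 709, 271 and 742 CPM in knockouts and 386, 593 and 772 CPM in wild types (-0.21 ± 0.45, adjusted p = 0.872), and C1qc had 123, 247, 143 and 201 CPM and 120, 153 and 249 CPM (0.05 ± 0.29, adjusted p = 0.961). The groups overlapped for all 3. C3ar1 rose to 240, 236, 265 and 337 CPM in knockouts, against 83.1, 107 and 73.6 CPM in wild types (1.63 ± 0.20, adjusted p = 6.42e-05). Cfp had 162, 116, 144 and 150 CPM in knockouts against 260, 227 and 199 CPM in wild types (-0.67 ± 0.17, adjusted p = 0.0396). For Cfp the call was lost without any library but knockout 3, with adjusted p from 0.0542 to 0.196. The 2 genes called were 2 of 8, against 3.62% of all genes. Tissue macrophage markers, all 7 detected, summed to 1041 to 1361 CPM in knockouts and 1129 to 1530 CPM in wild types. Of these, Ccr2 alone was at 414 to 648 CPM and 422 to 682 CPM. The erythroid list summed to 3756 to 33095 CPM in knockouts and 3271 to 20095 CPM in wild types. The epithelium list summed to 18.7 to 970 CPM and 10.2 to 66.2 CPM, and the part of these lists was not tested.

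Chimera cells at 5 weeks held high C1q in both genotypes. C1qa had 2718, 2588, 1744 and 2206 CPM in knockout cells and 1415, 1815 and 1904 CPM in wild-type cells (0.44 ± 0.42, log2, SE, adjusted p = 0.503). C1qb had 3334, 2825, 1955 and 3537 CPM and 1960, 1924 and 2325 CPM (adjusted p = 0.462), and C3ar1 had 64.8, 53.1, 40.7 and 48.4 CPM and 53.5, 38.0 and 64.9 CPM (-0.00 ± 0.25, adjusted p = 0.994). Both genotypes overlapped for these genes. C5ar1 alone was called, with 21.9, 11.7, 9.74 and 8.02 CPM in knockout cells against 76.2, 27.9 and 41.0 CPM in wild-type cells (-1.89 ± 0.36, adjusted p = 0.00211). C3 had 74.5, 190, 243 and 267 CPM in knockout cells and 113, 408 and 532 CPM in wild-type cells (adjusted p = 0.212), and was called without wild type 1 (-1.29, adjusted p = 0.0382). So 1 of 8 genes was called, where 22.5% of all genes were.

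At 10 weeks the genotypes had parted. C1qa had 6021, 5940 and 3924 CPM in knockout cells against 1004, 498, 181 and 293 CPM in wild-type cells (3.43 ± 0.44, log2, SE, adjusted p = 4.26e-05). C1qb had 6462, 6837 and 5502 CPM against 1239, 534, 206 and 331 CPM (3.45 ± 0.46, adjusted p = 5.63e-05), and C1qc had 4838, 4951 and 2389 CPM against 817, 421, 129 and 218 CPM (3.36 ± 0.52, adjusted p = 0.000187). C3ar1 had 115, 115 and 91.0 CPM in knockout cells against 17.4, 14.7, 5.87 and 9.87 CPM in wild-type cells (3.13 ± 0.28, adjusted p = 4.39e-07). No wild-type library reached a knockout library for these genes, although the wild types spread over more than 5-fold in C1qa. C3 had 66.6, 79.9 and 56.3 CPM against 143, 178, 265 and 288 CPM (-1.68 ± 0.50, adjusted p = 0.0152, and 0.0725 without knockout 3). Cfp had 301, 174 and 238 CPM against 398, 319, 421 and 442 CPM (-0.73 ± 0.22, adjusted p = 0.0127, and 0.0754 without knockout 2). C5ar1 had 78.4, 77.4 and 45.4 CPM and 113, 90.7, 83.7 and 116 CPM and was not called (adjusted p = 0.188). Of the 8 genes 6 were called, against 45.5% of all genes.

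For C3ar1 the change with time ran opposite ways in the genotypes, and for C1q the knockout effect grew. The knockout effect at 10 weeks exceeded that at 5 weeks by 2.99 ± 0.59 for C1qa, 2.95 ± 0.62 for C1qb, 2.84 ± 0.70 for C1qc and 3.13 ± 0.37 for C3ar1 (log2, SE, adjusted p = 0.00557, 0.00751, 0.0182 and 0.000147), 4 of 8 genes where 13.5% of all genes were called. In wild-type cells, 10 weeks against 5 weeks, C1qa fell by 1.79 ± 0.42 (adjusted p = 0.00849), C1qb by 1.84 ± 0.44 (adjusted p = 0.00926) and C3ar1 by 2.09 ± 0.27 (adjusted p = 5.21e-05). In knockout cells over the same interval the log2 changes of C1qb (1.11 ± 0.44, adjusted p = 0.0685) and C1qc (1.16 ± 0.49, adjusted p = 0.0891) did not pass the test. C3ar1 rose there by 1.05 ± 0.25 (adjusted p = 0.00531) and C5ar1 by 2.37 ± 0.36 (adjusted p = 0.000333), while Cfp fell by 0.91 ± 0.22 (adjusted p = 0.00522). The share of all genes called over time was 18.7% in wild-type and 31.5% in knockout cells, and 5 of the 8 genes were called in either.

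Some of these calls over time were weak. In wild-type cells C1qc (-1.68 ± 0.50, adjusted p = 0.0309) was lost without 5-week libraries 1, 2 or 3 (0.0654, 0.0718 and 0.0869) and 10-week libraries 2 or 4 (0.0594 and 0.076). C5ar1 rose in wild-type cells at an adjusted p of 0.0494, lost without any of 6 libraries, all but the first of 5 weeks, with adjusted p from 0.0587 to 0.194. In knockout cells C1qa (1.20 ± 0.42, adjusted p = 0.0437) was lost without any of the 7 libraries (0.0531 to 0.112). C3 in knockout cells (-1.51 ± 0.50, adjusted p = 0.0348) was lost without any but the first of 5 weeks (0.0536 to 0.119). For C5ar1 the difference of the effects over time was 1.31 ± 0.49 (adjusted p = 0.0952), called without 5-week knockout 1 (0.0164) or wild type 2 (0.0496), and for Cfp it was called without 10-week knockout 1 (-0.95, adjusted p = 0.0347).

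Chimera libraries also differed in markers. The alveolar macrophage list summed to 1448 to 1764 CPM in knockout and 4299 to 9602 CPM in wild-type cells at 5 weeks, and to 873 to 2076 CPM and 16718 to 28637 CPM at 10 weeks. All 6 dendritic cell genes were detected, with sums of 2246 to 4037 CPM in knockout and 518 to 680 CPM in wild-type cells at 5 weeks and of 330 to 1441 CPM and 38.1 to 129 CPM at 10 weeks. The tissue macrophage list summed to 61.6 to 79.1 CPM in knockout and 59.5 to 69.1 CPM in wild-type cells at 5 weeks, and to 51.4 to 78.9 CPM and 13.96 to 27.2 CPM at 10 weeks. The epithelium list summed to 136 to 380 CPM in knockout and 83.8 to 108 CPM in wild-type cells at 5 weeks. At 10 weeks it summed to 41.2 to 1295 CPM and 85.8 to 137 CPM. The erythroid list summed to 53.1 to 189 CPM and 24.2 to 129 CPM at 5 weeks, and to 21.4 to 384 CPM and 16.4 to 52.2 CPM at 10 weeks. The summed C1q was 4637 to 8189 CPM in knockout and 4575 to 5639 CPM in wild-type cells at 5 weeks, and 11815 to 17729 CPM and 515 to 3060 CPM at 10 weeks. The part of these lists in the C1q result was not tested.

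Ordered by the median of summed C1q within the largest table, the groups with the most C1q were E18 Csf2rb knockouts (4966 to 7957 CPM), facility 2 knockouts (5330 and 6374 CPM), CD11b high (4562 to 6215 CPM), facility 1 (4250 and 5047 CPM) and CD11b low knockouts (2696 to 7568 CPM) and E18 Cebpb knockouts (3416 to 4278 CPM). The ranges of neighbours in this order overlap. LyzMCre knockouts (1506 and 2316 CPM), male knockouts (1540 and 1701 CPM), CD11b high Lip cells (880 to 1700 CPM), E18 Cebpb wild types (791 to 1348 CPM) and CD11cCre knockouts (603 to 1109 CPM) followed, each overlapping the next. E18 Csf2rb wild types (99.6 to 140 CPM), LyzMCre controls (68.4 and 159 CPM), CD11b low Lip cells (42.8 to 140 CPM) and wild types of the first set (40.6 to 70.3 CPM) came next, again with overlap. Heterozygotes (35.4 to 37.9 CPM) and male wild types (23.9 and 33.5 CPM) stood below them, and CD11cCre controls (3.42, 177 and 7.01 CPM), Lip controls (0 to 7.86 CPM) and female wild types of both facilities (0.222 to 5.18 CPM) had the least. Wild types of the 2 fetal lines thus differed, and those lines differ in strain background, which cannot be told apart from other differences between the experiments.

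The balance of the 3 chains varied between groups while all 3 moved together. Over the 77 of 99 libraries with at least 100 C1q counts, C1qc made 12.6% to 36.4% of them, C1qa 9.03% to 59.9% and C1qb 23.7% to 75.2%. These shares are compared between groups and not between chains, since 3′ counting need not catch the 3 transcripts equally. C1qb made 67.6% to 75.2% in E18 Csf2rb knockouts and 47.8% to 58.0% in their wild types, and 63.7% to 72.1% in monocyte wild types. It made 60.2% and 63.7% in facility 2 knockouts, against 37.2% and 42.2% in facility 1 knockouts, although both are -/- females of the same line. In the first set it made 24.0% to 37.6% in CD11b high and 24.2% to 27.7% in CD11b low knockouts. The chimera groups were close to each other, with C1qb between 36.8% and 46.6% in all 4.

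**Figure D4:**
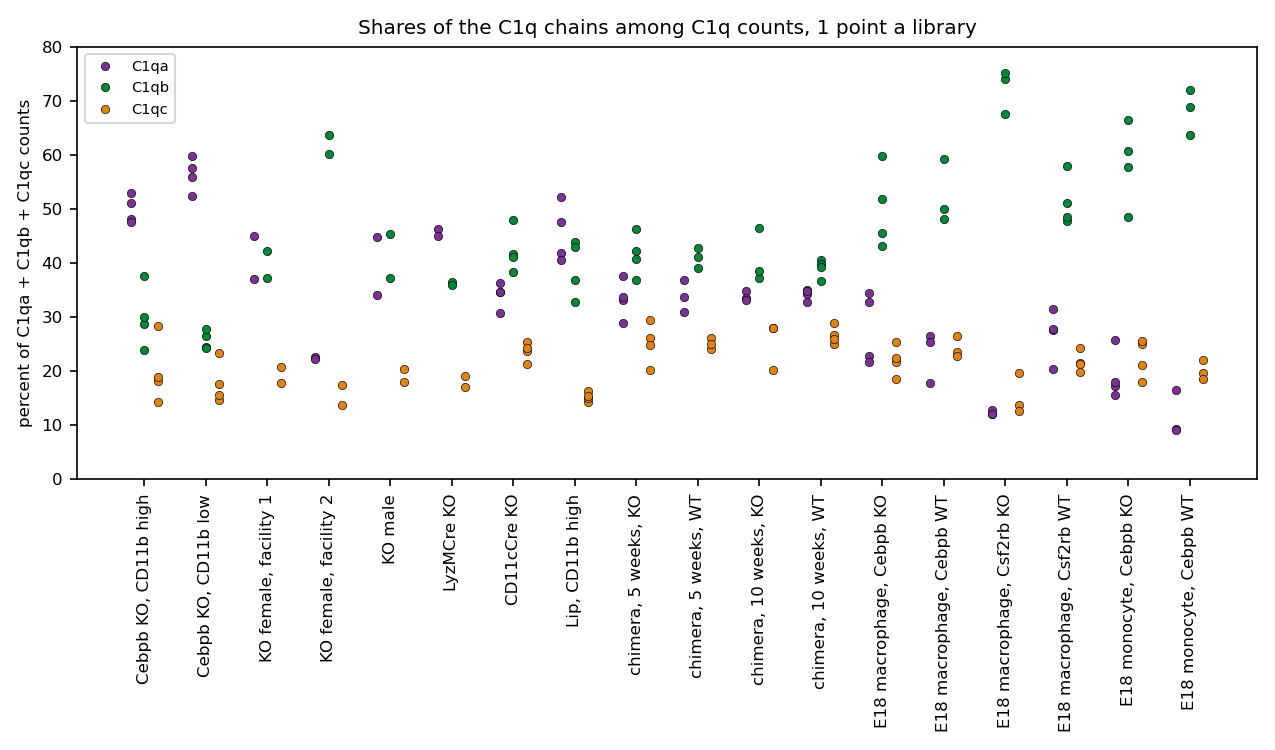
Share of each C1q chain among the summed counts of C1qa, C1qb and C1qc, in percent, 1 point a library, for a selection of the groups in which every library had at least 100 such counts. Heterozygotes, LyzMCre controls and the chromatin-matched groups are not drawn. Shares of C1qb reach 75.2% in E18 Csf2rb knockouts and stay at or below 37.6% in the first-set adult knockouts.

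Over the 21 group means of the largest table, C3ar1 followed summed C1q closely on the log2(CPM + 1) scale (Pearson r = 0.958), C5ar1 ran against it (r = -0.691) and so, less, did C3 (r = -0.383), while r was 0.219 for Cfp and 0.145 for Cfb. Of 8384 other genes with at least 20 CPM in 1 group, 7 of those most like C1q by this measure were Fcrls (r = 0.934), Itgb7 (0.933), Lat2 (0.933), Chn2 (0.932), Calhm2 (0.931), Lacc1 (0.928) and Tpcn1 (0.925). The genes most opposite were Il18 (r = -0.908), Pygo2 (-0.897), Net1 (-0.890) and Grb7 (-0.890). Group means share experiments and libraries, so these are descriptions.

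Of 44 other genes of the complement system, 12 to 18 were tested in a comparison. In the first set 5 of 13 tested rose and 1 fell, in CD11b high and in CD11b low knockouts alike, where 24% and 15.1% of all genes were called. Colec12, a scavenger receptor of the collectin family, averaged 74.5 ± 29.9 CPM in CD11b high and 78.1 ± 3.64 CPM in CD11b low knockouts and 16.5 ± 5.80 CPM in wild types. Fcna, which encodes the lectin pathway protein ficolin A, averaged 25.1 ± 8.87 CPM in CD11b low knockouts and 2.50 ± 2.38 CPM in wild types (3.20 ± 0.53, log2, SE). Itgam, one chain of complement receptor 3 and itself the CD11b of the sort, averaged 130 ± 67.0 CPM in CD11b high knockouts and 2.37 ± 1.62 CPM in wild types. It was called higher in CD11b low knockouts too, and the part of the gate in its level was not tested.

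Elsewhere the wider list moved as follows. In facility 1 it had 5 rises and 2 falls among 18 tested, where 23.2% of all genes were called, in facility 2 it had 8 and 3 of 18 (47.6%), and in males 5 and 0 of 18 (10.9%). With LyzMCre it had 2 and 2 of 12 (4.68%), and with CD11cCre 7 and 1 of 14 (16.8%). It had 4 and 3 of 12 in CD11b high Lip cells (39.3%) and 5 and 3 of 12 in CD11b low ones (25.8%). In E18 Cebpb knockouts it had 3 and 4 of 13 (21.5%), in E18 Csf2rb knockouts 2 and 4 of 14 (22.5%), and in monocytes 0 and 0 of 13 by edgeR (4 at an unadjusted p under 0.05), where 3.62% of all genes were called. In chimeras it had 1 and 6 of 18 at 5 weeks (22.5%) and 5 and 5 of 18 at 10 weeks (45.5%). C4b, a component of the classical pathway, averaged 142 ± 16.5 CPM in CD11b low and 54.0 ± 17.8 CPM in CD11b high Lip cells and 5.75 ± 2.03 CPM in Lip controls (4.68 ± 0.26 and 3.29 ± 0.30), the reverse of the order of C1q in these sorts. C2 averaged 42.4 ± 12.2 CPM in CD11b low Lip cells and 2.84 ± 1.16 CPM in controls (3.89 ± 0.63). In heterozygotes of facility 1 the gene called was Colec12, at 32.0 ± 4.05 CPM against 10.9 ± 2.80 CPM.

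In E18 Cebpb knockouts Fcna averaged 485 ± 268 CPM and in their wild types 67.0 ± 31.1 CPM, whereas Fcnb, which encodes ficolin B, averaged 0.386 ± 0.543 CPM and 20.1 ± 0.695 CPM (-5.77 ± 0.65, log2, SE, adjusted p = 1.89e-05). Fcnb was at 0 in all E18 Csf2rb knockouts and averaged 26.5 ± 8.49 CPM in their wild types. C1ra, one of the proteases that act with C1q, was lower in chimera knockouts than in wild-type cells at 5 weeks (-2.31 ± 0.30) and, at 12.5 ± 5.72 CPM against 44.9 ± 5.11 CPM, at 10 weeks (-1.84 ± 0.32). Clu, which encodes clusterin, an inhibitor of the terminal pathway, was higher there at 5 weeks, at 51.1 ± 26.4 CPM against 5.74 ± 3.03 CPM (3.13 ± 0.66).

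C/EBPβ peaks were deposited for 2 ChIP samples of wild-type C57BL/6 lavage macrophages, 27105 and 22558 peaks, each called in its own sample. A peak within 10 kb of the gene was listed in both for 5 of the 8 genes, C3, C3ar1, C5ar1, Cfb and Cfp, against 39.3% of 21900 protein-coding genes, and at a −log10 q of at least 20 for 3, C3, C3ar1 and C5ar1, against 17.4%. None was listed in either sample within 10 kb of C1qa, C1qb or C1qc. C5ar1 had 5 peaks in each list, of which the strongest, at chr7:16243829-16244986, lay 2373 bases past the end of the gene with a fold of 57.8 over the local background in sample 1 and 53.5 in sample 2, as deposited. At C3 a peak covered the promoter shown above, at chr17:57227681-57228733 with its summit 38 bases before the start and a fold of 29.7 in sample 1, and at chr17:57227690-57228843 with its summit 182 bases before the start and a fold of 22.2 in sample 2. C3ar1 had 1 peak in each, 6871 and 6953 bases before its start, at chr6:122862506-122863457 in sample 1 with a fold of 25.8.

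Open chromatin was deposited as ATAC peaks of MxCre+ cultures grown for 7 days with 20 ng/ml CSF2 and treated with 1000 units/ml IFNα, 3 with floxed Cebpb and 2 without. These are cultured cells, and not the lavage cells of the RNA libraries. C3, C3ar1, C5ar1, Cfb and Cfp had a peak within 10 kb in all 5 cultures, as did 73.5% of protein-coding genes. The C1q cluster had few. A region at the C1qb start, chr4:136886088-136886740, which overlaps the promoter printed above, had a peak in 2 of 3 knockout cultures and 0 of 2 controls, and one at the C1qc start, chr4:136892877-136893291, in 2 of 3 and 1 of 2. A region at chr4:136893943-136894435, 1253 bases before the C1qc start, had one in 3 of 3 and 1 of 2, and one at the C1qa start, chr4:136898827-136899067, in 1 of 3 and 0 of 2. With 3 against 2 cultures no test of such counts can reach 0.05, and list lengths differed, at 101952, 90597 and 88282 peaks in knockout and 81880 and 92432 in control cultures. The region upstream of C3ar1 that held its C/EBPβ peak was open in all 5 cultures.

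**Figure D5:**
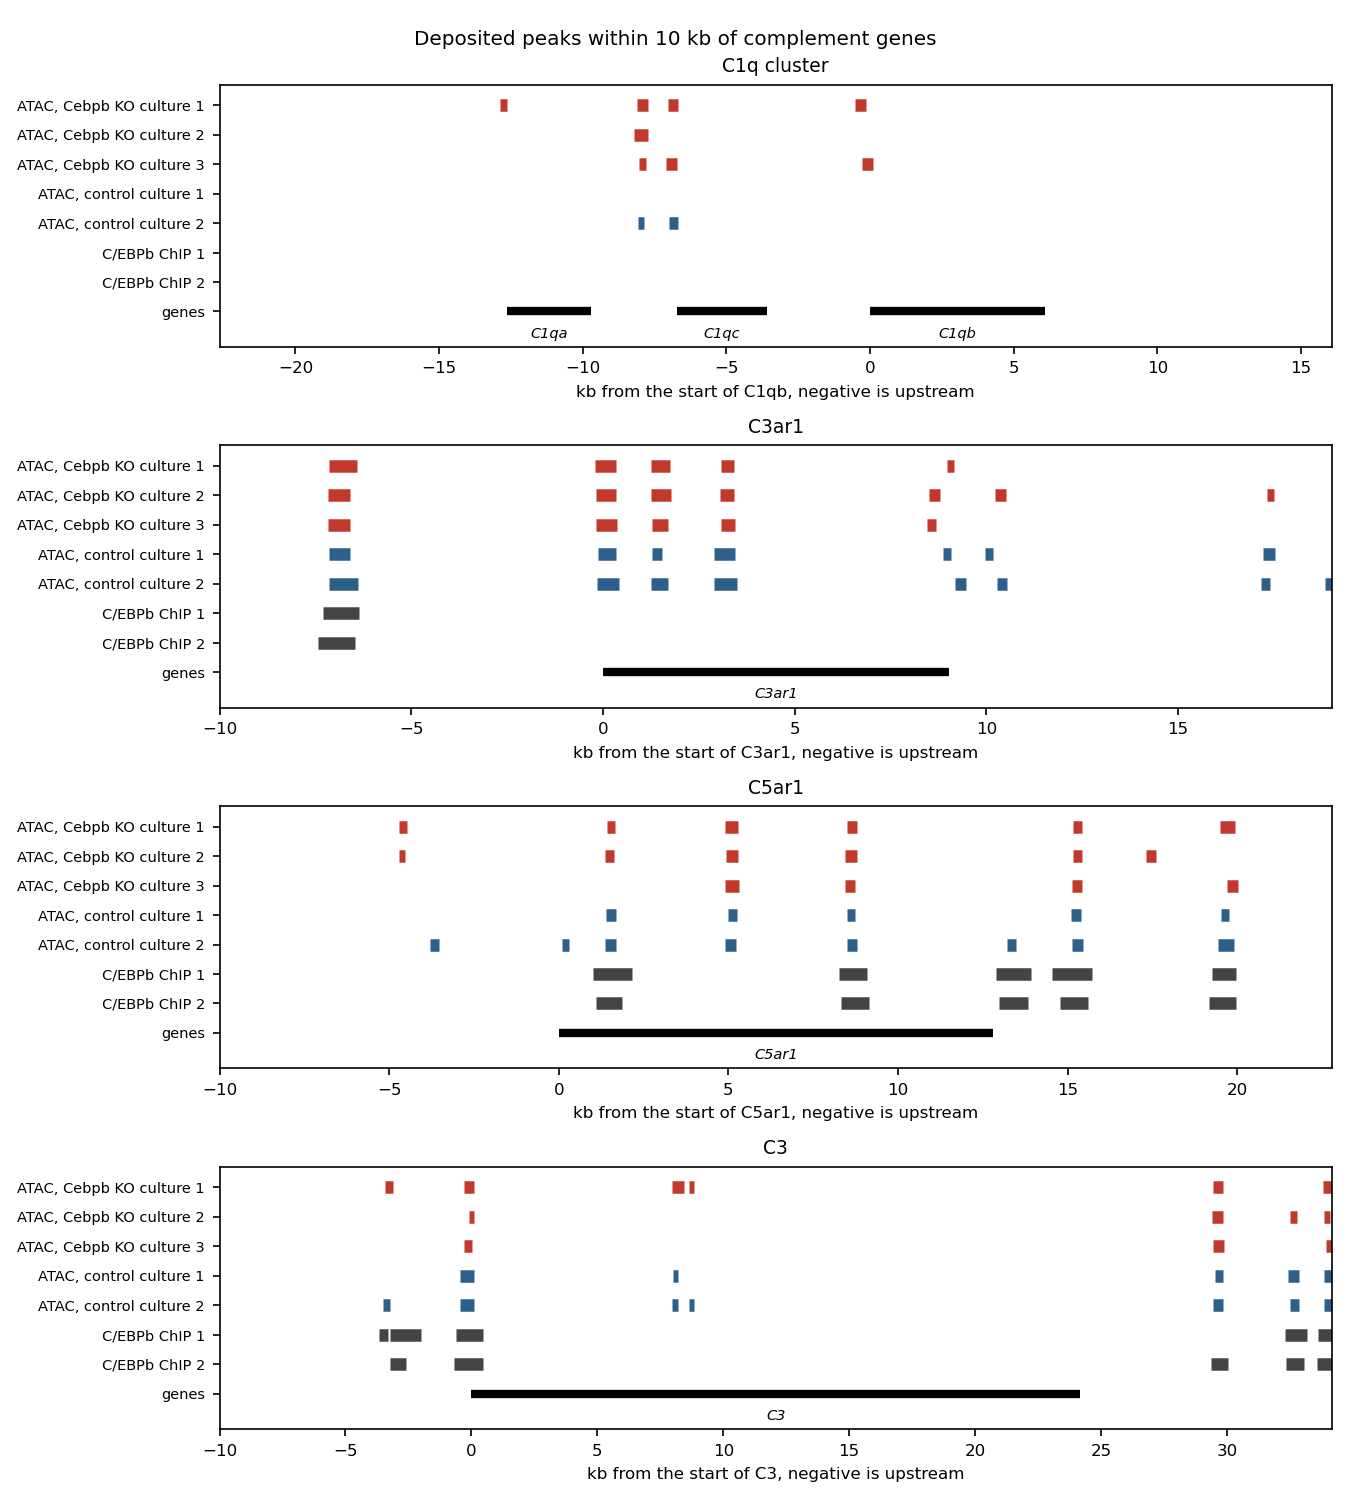
Deposited peaks within 10 kb of the C1q cluster, C3ar1, C5ar1 and C3, drawn by distance in kb from a gene start, with knockout cultures (red) above control cultures (blue), C/EBPβ ChIP samples (grey) and gene bodies (black). No C/EBPβ peak is listed in the C1q window, while 5 peaks a sample lie at C5ar1 and at C3 and 1 at C3ar1.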

How the data were processed

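RNA was counted in 99 libraries and chromatin in 7 peak lists, while 2 ChIP inputs and 14 other samples for ATAC-seq are not analysed here. Per the submitters' processing notes, reads were aligned with STAR 2.6.1a and the deposited counts per gene were made with featureCounts 1.6.3 on GRCm38. The handling of molecular tags and of strand was not given in the sources used here. Intervals and floors cover counting error only and genes on opposite strands cannot be told apart. Per the same notes BWA 0.7.17 and MACS2 2.2.7.1 were used, and each deposited peak carries the authors' fold over the local background and −log10 q. The lowest −log10 q was 1.34 to 1.42 in the ATAC lists and 5.00 to 5.02 in the ChIP lists.

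Each comparison was fitted within its own table and experiment with edgeR 4.0.16 in R 4.3.3 (TMM, filterByExpr with a minimum count of 10, robust quasi-likelihood F test), and the script was tested on simulated data. A fold against a group with 1 to 3 counts is given as the ratio of summed counts with its exact binomial interval. Against a group with no count it is the mean CPM over a floor of 3 counts in that group. The tables were normalised separately, so levels are not comparable between them. Alternatives were DESeq2 1.42.0, RLE factors, total counts, no filter, all groups of a table in the fit, a replicate block and leaving out each library. Same-numbered libraries deviated together (r above 0.1 in every pair) for CD11b high and low Lip cells (4 pairs, r of 0.137 to 0.334) and for chimeras at 10 weeks (3 pairs, 0.161 to 0.229). For peaks, a gene with 10 kb on either side was searched, in a RefSeq annotation of GRCm38.p6.

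The genes named are the 8 members, the targeted genes as a check, up to 4 called genes of the wider list per comparison with the largest change and at least 20 CPM in 1 group (fewer are given), and the genes most like and 4 most unlike summed C1q. A few genes and 1 motif of these lists are not reported here, and sums and counts over the lists leave those genes out. Members and lists were chosen with earlier results of these data known.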

Additional observations from a re-analysis of the deposited data

Results flagged for a closer look

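In groups of 4 a single library stood apart for several members by Dixon's criterion, which chance alone meets in about 1 of 20 groups and which was met in 13 of 103 groups tested. Of these 13, 6 are groups in which a single library had counts of Cfb. The criterion is then met whatever the count, and the rate of about 1 in 20 does not hold for them. C1qa was at 2194 CPM in CD11b high knockout 1, with the other 3 at 2834 to 2964 CPM. In CD11b low Lip library 4 C1qa was at 61.4 CPM, with the others at 22.1 to 28.4 CPM. C1qc was at 3.89 CPM in chromatin-matched Lip control 2 and at 2.19 to 2.34 CPM in the others. C3 was at 615 CPM in E18 Csf2rb wild type 2, against 253 to 302 CPM in the others, and at 216 CPM in monocyte knockout 3, against 288 to 293 CPM. C5ar1 was at 9.77 CPM in CD11b low knockout 4 (others 4.09 to 5.03 CPM) and at 9.38 CPM in CD11b high knockout 3 (others 0.979 to 1.67 CPM). Cfb had counts in a single library of a group in 6 cases, at 1.96 CPM in adult wild type 3, 1.67 CPM in CD11b low knockout 2, 0.392 CPM in E18 Cebpb knockout 1, 0.241 CPM in CD11cCre knockout 1, 0.0850 CPM in 5-week chimera knockout 1 and 1.36 CPM in chromatin-matched Lip control 3.

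Effects of the same contrast differed between groups for several members, on the log2 scale and by the test of the difference in edgeR. Facility 2 minus facility 1 was 1.92 for C3 and -1.02 for Cfp. Males minus females was -6.06 for C1qa, -5.60 for C1qb, -6.19 for C1qc and -5.56 for C3ar1. The sizes of these differences between males and females rest on the few counts of the female wild types, and sex and site cannot be told apart. Chimeras at 10 minus 5 weeks gave 2.99 for C1qa, 2.95 for C1qb, 2.84 for C1qc and 3.13 for C3ar1. Adult CD11b low minus E18 gave 4.60 for C1qa, 3.92 for C1qb, 5.11 for C1qc, 2.85 for C3ar1 and -2.45 for C5ar1. The knockout effect minus the Lip effect in CD11b low cells was -1.96 for C5ar1.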

How the results depend on the processing

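No member changed direction under any alternative run where it was called. Among single genes and comparisons, calls gained and lost were 8 and 1 with DESeq2, 0 and 2 with RLE factors, 1 and 4 with total counts, 3 and 6 without a filter, 3 and 6 with a replicate block, 5 and 10 with all groups in the fit, and 22 and 77 over all fits that left out 1 library. The number of members called moved by more than 1.5 times in the following cases, and the cause was not tested. CD11b high against low knockouts gave 1 with DESeq2 (0 in the report). Heterozygotes gave 1 with all groups in the fit (3). CD11cCre gave 4 with DESeq2, 1 with a replicate block and 5 with all groups (2). Monocytes gave 1 with total counts, with the replicate block and with all groups (2). Chimera wild types over time gave 3 without a filter (5), as did chimera knockouts (5). The facility difference gave 1 with RLE factors and with all groups (2). LyzMCre minus CD11cCre gave 1 with DESeq2 and without a filter (0), and knockout minus Lip gave 2 with DESeq2, 2 with the replicate block and 0 with all groups (1). At a −log10 q of at least 20, 3 members had a C/EBPβ peak and 3 an ATAC peak in all samples (5 each).

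Leaving out 1 library gave 2 to 5 members called with CD11cCre, 4 to 7 with LyzMCre (6 in the report), 1 to 2 in monocytes and in chimeras at 5 weeks, 3 to 4 over time in chimera wild types and in knockouts, 1 to 2 for the facility difference, 0 to 1 for LyzMCre minus CD11cCre and 0 to 2 for knockout minus Lip. It changed no count for the first-set knockouts against wild types, males, CD11b high Lip cells or chromatin-matched Cebpb knockouts. In the 2 paired sets named above the replicate block changed no call of a member. Elsewhere the labels do not say whether libraries with the same number share an animal. That holds for chimeras at 5 weeks and for CD11b high and low knockouts of the first set.

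Few counts limit Cfb throughout, and C1q and C3ar1 in female wild types and Lip controls, where fold sizes are bounds or wide ratios. With CD11cCre the call of C1q by edgeR changed without control 2, which had more C1q than the other controls, and with DESeq2 or all groups in the fit.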
